A study of Homo sapiens with 8 samples.

Results

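The zinc finger genes described here are the 246 protein-coding genes on chromosome 19 whose symbol is ZNF followed by digits and at most 1 letter, out of 19974 that code for protein in the RefSeq annotation (assembly GRCh38.p14). Each gene was measured over a window that runs from 1 kb before the gene to 1 kb after it, and its value is the percentage of that window covered by ChIP-seq peaks. The windows together make up 7.49 Mb, and 54 of them overlap the window of another member, so those pairs share bases. Gene length ran from 2469 bases to 488 kb, with a median of 23.2 kb.

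The peaks came from MCF10A, an established human line of breast epithelial origin that does not form tumours. HP1a (encoded by CBX5) was mapped in wild-type cells and in HP1b knockdown, and HP1b (encoded by CBX1) in wild-type cells and in HP1a knockdown, with 2 libraries in each of the 4 groups. No other treatment is given, the way the knockdowns were made is not given in the sources used here, and peak lists do not measure the amount of either protein, so the knockdowns were not checked. The libraries of a group are replicates by label but are not stated to be separate cultures, so p-values measure only the spread between these libraries.

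C2H2 zinc finger genes encode DNA-binding proteins with tandem fingers, each held together by a zinc ion. Many of those on chromosome 19 also carry a KRAB domain, which recruits TRIM28 (KAP1), and through it the histone H3K9 methyltransferase SETDB1 and HP1 proteins. The genes arose by repeated tandem duplication, lie in clusters, and are themselves known as a place where H3K9me3 and HP1 are found over the gene body. HP1 proteins bind H3K9me3 through their chromodomain.

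The lists differed in length: 134058 and 115564 peaks for HP1a in wild type, 19638 and 19092 for HP1a in HP1b knockdown, 239563 and 240090 for HP1b in wild type, and 159536 and 225991 for HP1b in HP1a knockdown. The weakest HP1a peak listed had a −log10 p of 2.75 and 2.80 in wild type but 3.43 in both knockdown libraries, so the 2 groups of HP1a lists did not end at the same strength. Read depth is unknown, because the lists hold no read counts, and a window without a peak is one where none was listed. Paralogous zinc finger genes can share reads, and how reads with several matches were treated is not given in the sources used here.

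In wild-type cells, peaks covered 8.80 and 8.15% of the members' windows in the HP1a libraries (mean 8.48 ± 0.461%, SD, n = 2) and 26.9 and 26.7% in the HP1b libraries (26.8 ± 0.152%). Both HP1b values lay above both HP1a values, by 3.17-fold in the mean. The same measure over all protein-coding genes was 2.04 ± 0.289% for HP1a and 4.74 ± 0.141% for HP1b. Over the 1205 other protein-coding genes of chromosome 19 it was 1.29 ± 0.264% and 4.71 ± 0.342%, and over 263 ZNF genes on other chromosomes 3.86 ± 0.412% and 9.79 ± 0.182%. In these libraries the members' windows were therefore covered over a larger share than any of the 3 other sets, and the rest of chromosome 19 lay near or below the level of all genes. The members held 0.977 ± 0.0467% of all wild-type HP1a peak bases and 1.28% of HP1b peak bases.

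Gene by gene, HP1b coverage in wild type had a median of 25.9% and reached 79.6%, and 21 members were covered over more than 50%. HP1a coverage had a median of 6.87% and reached 45.7%, and 23 members were listed at 0 in both libraries. Across the 246 members the HP1a and HP1b means in wild type had a Spearman's rho of 0.85. The 2 wild-type replicates had 0.74 for HP1a and 0.87 for HP1b. Replicates of HP1a in HP1b knockdown had only 0.24, and those of HP1b in HP1a knockdown 0.85. These are descriptions across genes of which neighbours share windows, copies and libraries. Of member bases covered by HP1a in 1 knockdown library, 4.78 and 4.86% were covered in the other, against 27.0 and 29.2% in wild type. Single-gene HP1a values in the knockdown therefore repeat poorly. Gene length followed coverage little, with a rho of 0.16 for HP1a and 0.09 for HP1b. Of the bases of members covered in both wild-type HP1a libraries, 67.7% were also covered in both wild-type HP1b libraries, and 10.8% the other way round. Over all genes these shares were 29.4 and 6.69%, and in ZNF genes outside chromosome 19 they were 77.4 and 20.9%, above those of the members.

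**Figure D1:**
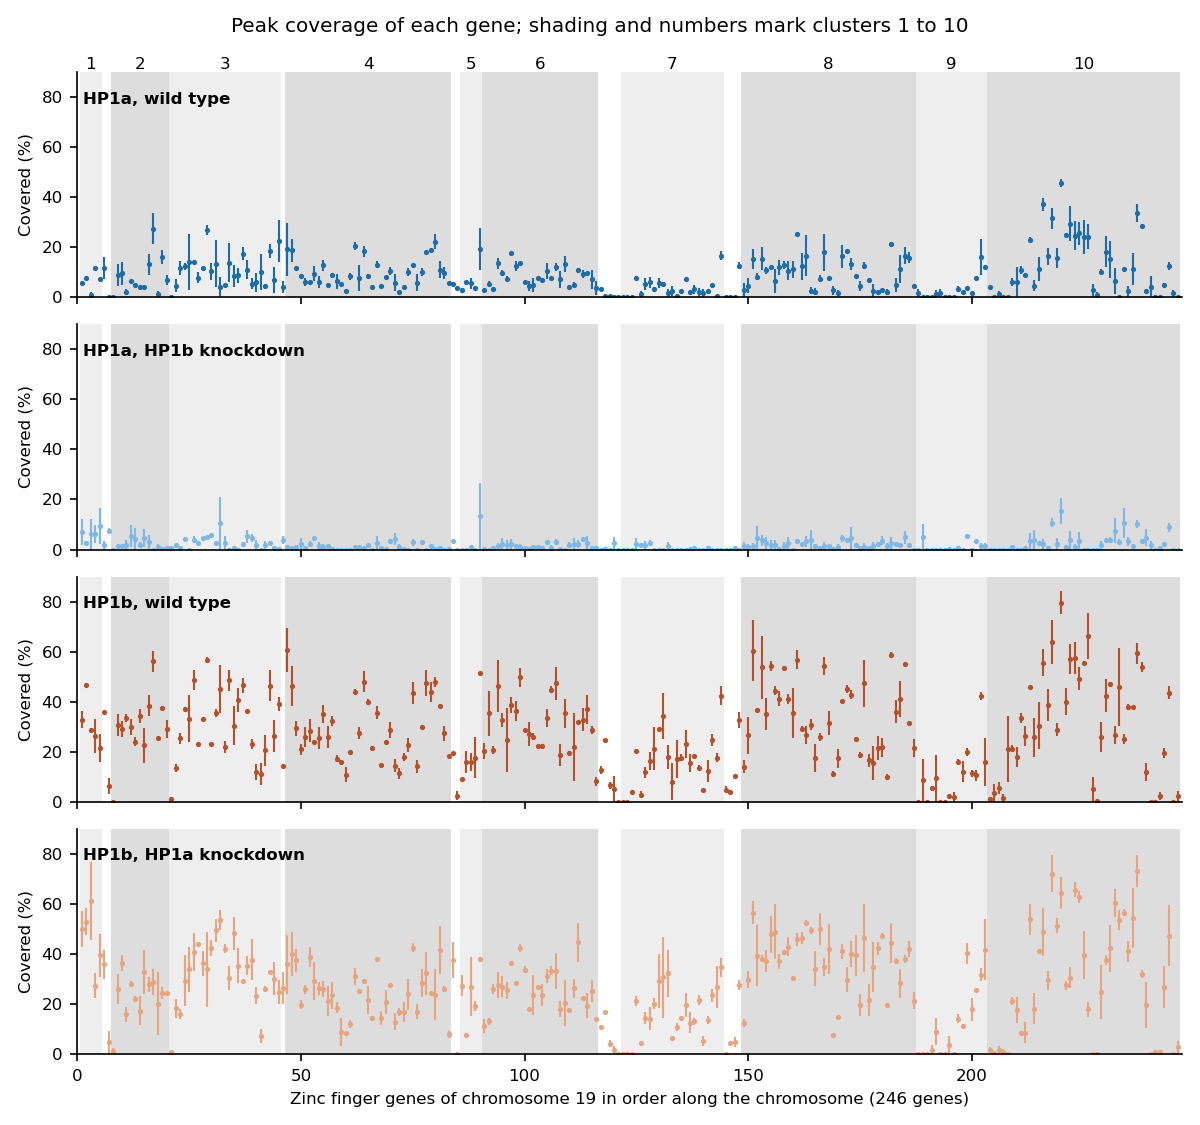
Percentage of each gene's window (the gene and 1 kb beyond each end) covered by peaks, for the 246 zinc finger genes in order along chromosome 19, with 1 panel per group. Points are means and lines run from the lower to the higher of the 2 libraries. HP1a coverage reaches 45.7% in wild type and 15.5% in HP1b knockdown, while HP1b coverage reaches 79.6% in wild type and 73.0% in HP1a knockdown.

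ZNF134 (chromosome 19, 57614242 to 57624724, near the end of the long arm) was the most covered member in wild type. HP1a peaks covered 47.2 and 44.2% of it and HP1b peaks 84.3 and 74.9%. In HP1b knockdown HP1a covered 10.3 and 20.7%, and in HP1a knockdown HP1b covered 70.9 and 58.1%. Both knockdown libraries thus lay below both wild-type libraries for each protein, although the scaled change was not past the threshold in either comparison (limma adjusted p 0.241 and 0.865). ZNF134 was picked for its high wild-type coverage by both proteins, so part of that order can follow from the choice. Its window overlaps that of a neighbouring member.

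ZNF274 (58183061 to 58213562) encodes a KRAB zinc finger protein known to bind the 3′ ends of zinc finger genes and to recruit TRIM28 and SETDB1 there. HP1a covered 37.3 and 30.0% of it in wild type and 8.45 and 11.9% in HP1b knockdown. HP1b covered 55.2 and 63.6% in wild type and 66.7 and 79.4% in HP1a knockdown, the highest mean of any member in that group. The groups did not overlap in either protein, lower in the knockdown for HP1a and higher for HP1b. ZNF274 is also among the members picked for high HP1a in wild type and for high HP1b in HP1a knockdown. Part of both differences can follow from that choice. Neither scaled change passed (adjusted p 0.102 and 0.254, limma).

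ZNF416 stood near the top for both proteins, with HP1a at 35.7 and 27.3% in wild type and 12.5 and 9.14% in HP1b knockdown. HP1b covered 72.8 and 54.9% of it in wild type and 64.8 and 79.4% in HP1a knockdown, ranges that overlap. ZNF549 had 34.5 and 39.7% HP1a in wild type and kept a peak in only 1 of 2 knockdown libraries (0 and 4.40%). ZNF551 had 36.3 and 22.6%, then 7.25 and 0%, and ZNF544 had 28.5 and 28.1%, then 2.89 and 3.61%. All 6 of these most HP1a-covered members lie in the cluster at the end of the long arm, within 57.19 to 58.49 Mb. They were picked for high wild-type HP1a, so part of their lower values in the knockdown can follow from that choice.

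At the other end, 5 members had no peak in any of the 8 libraries: ZNF526, ZNF575, ZNF576, ZNF524 and ZNF580. They were short, between 2.47 and 7.89 kb, and a short window is less likely to meet a peak. Of the 62 shortest members (2.47 to 15.4 kb), 33 had an HP1a peak in both wild-type libraries, against 60 of the 62 longest. The median covered percentage by wild-type HP1a was 4.43% in this shortest group, 6.25 and 8.77% in the next 2 groups by length (61 members each) and 6.95% in the longest, so it did not rise steadily with length. A peak was present in all 8 libraries at 78 members and in 7 libraries at 85.

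Peaks over members were wider than the lists as a whole. Their median width was 564 and 541.5 bases for wild-type HP1a against 443 and 450 over all peaks, and 788 and 749 bases for wild-type HP1b against 533 and 530. Of wild-type HP1b peaks at members, 14.7 and 14.8% were at least 2 kb wide, against 2.84 and 2.67% of all peaks, and the widest measured 11670 and 12091 bases. The median fold enrichment that the authors' caller gave was 3.53 and 3.49 for wild-type HP1a peaks at members, against 3.29 and 3.26 in the whole lists.

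Coverage was low at the start of the genes, higher further inside and toward their end, and did not drop in the 1 kb after it. For the 216 members with a strand in the reference, each gene was divided into 10 equal parts from the start of transcription to its end. Wild-type HP1a covered 3.33 ± 1.11% of the first part, 11.6 ± 0.714% of the eighth and 8.74 ± 0.05% of the last (mean over members, SD over n = 2 libraries). Wild-type HP1b covered 14.1 ± 0.706% of the first part, 35.5 ± 0.0981% of the seventh and 27.2 ± 0.962% of the last. The 1 kb after the end was covered over 10.3 ± 0.662% by wild-type HP1a and 30.2 ± 2.52% by wild-type HP1b, above the last part in both libraries of each. For both proteins in wild type, the first part was lower in both libraries than any other part of the gene. In the 969 other genes of chromosome 19 with a strand, HP1b covered between 2.93 and 3.71% of every part. HP1a in HP1b knockdown went from 1.10% in the first part to 3.17% in the seventh, and HP1b in HP1a knockdown from 15.9 to 30.9%. In ZNF genes on other chromosomes the first part was also the lowest for wild-type HP1b, 6.61% against 12.5 to 15.1% from the third part on.

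**Figure D2:**
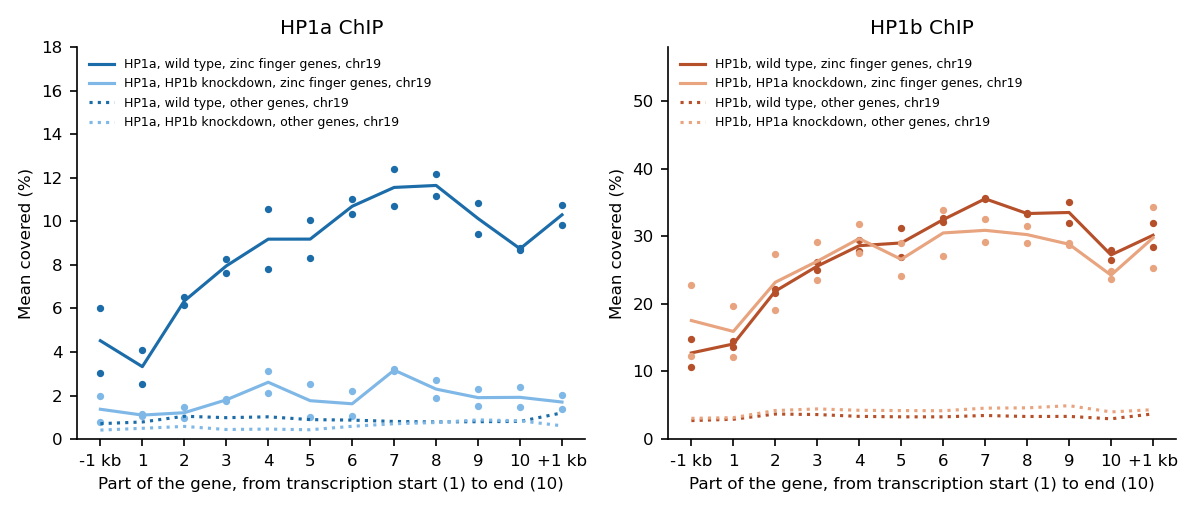
Mean percentage covered by peaks in 10 equal parts of the gene from transcription start to end, with the 1 kb before and after. Solid lines are group means over 216 zinc finger genes with points for single libraries, and dotted lines are means over 969 other genes of chromosome 19. Within the gene, wild-type coverage of the zinc finger genes is lowest in the first part (3.33% for HP1a, 14.1% for HP1b) and highest in the eighth part for HP1a (11.6%) and the seventh for HP1b (35.5%). In the 1 kb before the start it is 4.52% for HP1a and 12.7% for HP1b, and in the 1 kb after the end 10.3 and 30.2%. Wild-type HP1b in the other genes stays between 2.93 and 3.71% within the gene.

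Promoters of members, taken as 250 bases before to 50 bases after the start, seldom carried a peak. Of 216 promoters, 14 and 5 met an HP1a peak in wild type, 4 and 2 in HP1b knockdown, 18 and 39 an HP1b peak in wild type, and 24 and 46 in HP1a knockdown. The replicates differ by more than the groups do for HP1b, so no difference between groups can be read from these counts. Over 15812 promoters of all genes the shares were 1.85 and 1.34% for wild-type HP1a and 3.26 and 4.14% for wild-type HP1b, against 6.48 and 2.31% and 8.33 and 18.1% of members.

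Promoters with peaks in more libraries held fewer CpG dinucleotides (the letters CG, which read the same on both strands). The median number per 300-base window was 22 in the 138 member promoters without any peak, 17.5 in the 58 with a peak in 1 or 2 libraries and 14 in the 20 with a peak in 3 or more. The ranges overlap widely (2 to 49, 6 to 40 and 8 to 25). Many of those 20 lie from ZNF101 to ZNF254 (19.67 to 24.13 Mb), where promoters held at most 18 CpG with or without a peak. There the number ran from 9 to 18 without a peak and from 8 to 16 with a peak in 3 or more libraries. The trend was not compared within clusters of genes. Over all promoters the median was 22, and over members 20. The sequences below, from RefSeq on GRCh38.p14, show 2 promoters with a peak in 5 libraries and the promoter of ZNF274, which had none although the gene body was among the most covered. Each runs 5′ to 3′ on the gene's own strand, with every CpG in capitals.
ZNF43: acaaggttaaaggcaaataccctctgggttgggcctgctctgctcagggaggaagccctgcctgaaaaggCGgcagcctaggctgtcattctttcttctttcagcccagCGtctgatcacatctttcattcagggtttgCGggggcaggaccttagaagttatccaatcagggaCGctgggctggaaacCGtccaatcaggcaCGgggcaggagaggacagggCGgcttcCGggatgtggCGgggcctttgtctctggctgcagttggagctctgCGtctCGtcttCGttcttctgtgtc
ZNF880: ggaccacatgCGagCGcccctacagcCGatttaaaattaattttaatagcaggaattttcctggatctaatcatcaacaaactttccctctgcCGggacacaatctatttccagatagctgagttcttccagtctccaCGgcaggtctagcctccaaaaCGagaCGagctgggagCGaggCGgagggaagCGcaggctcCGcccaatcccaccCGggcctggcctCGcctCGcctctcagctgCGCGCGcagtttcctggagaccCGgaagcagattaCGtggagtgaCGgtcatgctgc
ZNF274: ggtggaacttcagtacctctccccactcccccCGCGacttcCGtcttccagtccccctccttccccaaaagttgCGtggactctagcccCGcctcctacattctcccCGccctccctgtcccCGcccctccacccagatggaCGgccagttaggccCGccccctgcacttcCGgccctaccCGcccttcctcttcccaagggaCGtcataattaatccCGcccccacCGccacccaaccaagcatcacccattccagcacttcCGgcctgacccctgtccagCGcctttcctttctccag
The ZNF43 window (chr19:21836133-21836432, minus strand, 12 CpG) was covered over 300 and 198 bases by HP1a in wild type, 0 and 300 by HP1b in wild type, 300 and 263 by HP1b in HP1a knockdown, and 0 by HP1a in HP1b knockdown. The ZNF880 window (chr19:52369673-52369972, plus strand, 20 CpG) was covered over 300 and 0 bases by wild-type HP1a, 192 and 143 by wild-type HP1b and 300 in both HP1a-knockdown libraries. The ZNF274 window (chr19:58182811-58183110, plus strand) has 16 CpG.

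Along the chromosome, 232 members fell into 10 clusters of at least 5 members, split wherever the gap between members was over 500 kb, and 14 members lay outside. They are numbered from the end of the short arm. Cluster 1 (ZNF554 to ZNF77, 2.82 to 2.94 Mb) and cluster 5 (ZNF302 to ZNF792, 34.68 to 34.96 Mb) have 5 members each. Cluster 2 (ZNF414 to ZNF846, 8.51 to 9.79 Mb) has 13, and cluster 3 (ZNF653 to ZNF791, 11.48 to 12.63 Mb) has 25. Cluster 4 (ZNF101 to ZNF254, 19.67 to 24.13 Mb) lies beside the centromere and has 37 members, with a median length of 34.6 kb, the longest of the 10. Cluster 6 (ZNF565 to ZNF573, 36.18 to 37.78 Mb) has 26, cluster 7 (ZNF575 to ZNF180, 43.53 to 44.5 Mb) 23, cluster 8 (ZNF175 to ZNF331, 51.57 to 53.58 Mb) 39 and cluster 9 (ZNF628 to ZNF835, 55.48 to 56.67 Mb) 16. Cluster 10 (ZNF264 to ZNF446, 57.19 to 58.49 Mb), at the end of the long arm, has 43 members.

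HP1a in wild type covered cluster 10 most, 14.1 and 11.7% of its member windows, and clusters 9 (3.16 and 4.69%) and 7 (4.40 and 3.59%) least. Cluster 3 followed with 11.5 and 10.2%, then cluster 4 with 9.58 and 9.85%, cluster 8 with 9.40 and 8.94% and cluster 2 with 9.19 and 7.95%. Cluster 6 had 8.25 and 7.69%, cluster 1 had 6.91 and 6.42%, and cluster 5 had 7.86 and 4.64%. The libraries of clusters 8 and 2, of 2 and 6, of 1 and 5 and of 7 and 9 overlapped, so those neighbours in the order do not differ beyond their spread. Clusters 7 and 9 lay below clusters 1, 2, 3, 4, 6, 8 and 10 in both libraries. The mean ran from 3.93 to 12.9%, a 3.29-fold range.

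HP1b in wild type gave a flatter order at the top. It covered 33.7 and 30.5% of cluster 1, 32.1 and 31.8% of cluster 8, 32.5 and 31.0% of cluster 3, 29.0 and 33.2% of cluster 2 and 30.4 and 29.9% of cluster 10. Clusters 4 (28.9 and 27.8%) and 6 (27.3 and 29.2%) came next. Clusters 5 (19.3 and 18.1%), 7 (18.7 and 15.5%) and 9 (13.3 and 12.3%) lay below the other 7 in both libraries. Clusters 7 and 9 were thus low for both proteins, while cluster 1, seventh for HP1a, had the highest mean for HP1b without standing apart from clusters 2, 3 and 8, whose libraries overlapped with its own. With equal numbers of peaks the highest HP1b mean was that of cluster 3, 29.7% against 29.4% in cluster 1.

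Cluster 9 was uneven. With a gap of 250 kb in place of 500 kb it divides into ZNF628 to ZNF580 (7 members), covered over 0.845% by HP1a and 3.38% by HP1b in wild type, and ZNF787 to ZNF835 (9 members), at 4.65 and 14.9%. Within cluster 9, ZNF71 was the most covered member, with HP1a at 8.83 and 23.5% and HP1b at 44.0 and 40.6% in wild type. The most covered member of cluster 7 was ZNF180, with HP1a at 14.8 and 18.5% and HP1b at 38.6 and 46.3%. Members of a cluster spread widely, and in cluster 10 wild-type HP1b ran from 0 to 79.6% with a median of 28.9%.

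**Figure D3:**
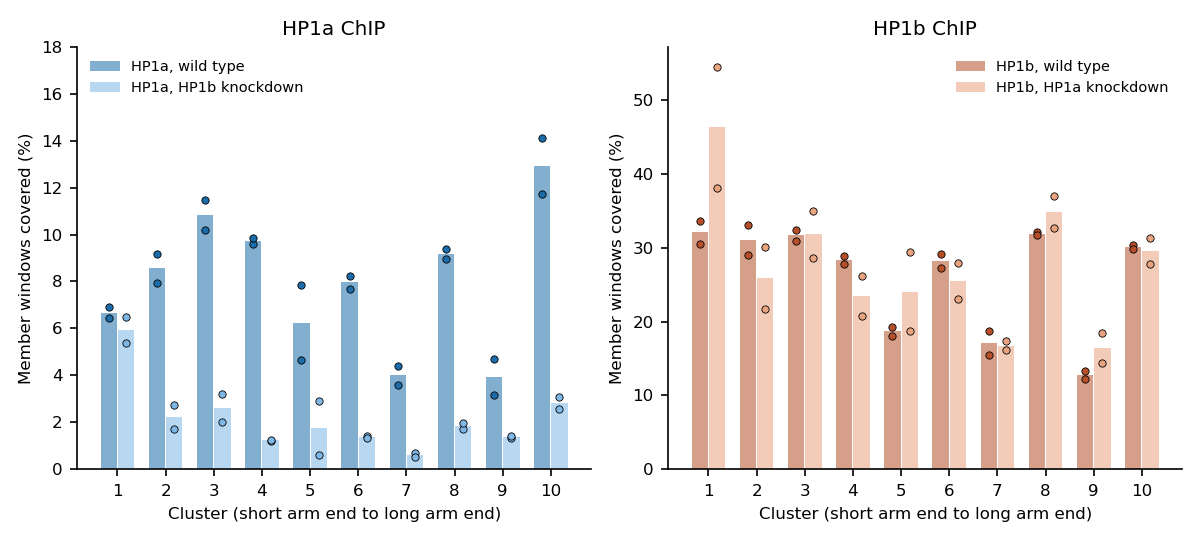
Percentage of member windows covered by peaks in each of 10 clusters, from the short arm end (1) to the long arm end (10). Bars are group means and points are the 2 libraries. In wild type, HP1a is highest in cluster 10 (12.9%) and lowest in cluster 9 (3.93%), and in HP1b knockdown it is lower than in both wild-type libraries in every cluster but cluster 1.

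Between the member windows of a cluster, HP1 coverage was lower than in them in wild type. Over the 10 clusters, HP1a covered 9.29 and 8.66% of the 6.67 Mb in member windows and 6.82 and 6.22% of the remaining 7.73 Mb of the spans. HP1b covered 28.3 and 27.9% against 21.2 and 21.2%. In clusters 4 and 6 the HP1a values in and between members were close, 9.71 ± 0.185 and 9.37 ± 0.303% in cluster 4 and 7.97 ± 0.395 and 7.59 ± 0.821% in cluster 6. In cluster 10 they were 12.9 ± 1.67 and 4.91 ± 0.307%. The spans between members hold other protein-coding genes, 2 in cluster 4 and 26 in cluster 9, as well as non-coding sequence that was not classified here.

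In the knockdowns this difference between members and the rest of the span, pooled over the clusters, was smaller or turned round. HP1a in HP1b knockdown covered 1.77 and 1.76% of member windows and 2.42 and 2.10% of the rest, so both libraries had less in members. Cluster by cluster, both libraries had less in members in 4 clusters and more in members in 2, and in the others the libraries differed. The HP1a lists of the knockdown are shorter than those of wild type. Whether the pooled direction holds with equal numbers of peaks was not tested. HP1b in HP1a knockdown covered 24.6 and 29.7% of member windows and 23.6 and 28.7% of the rest. Between members, HP1b in HP1a knockdown stood at 26.2 ± 3.57% against 21.2 ± 0.0163% in wild type, and both knockdown libraries were above both wild-type libraries. In cluster 4 the values between members were 29.2 and 32.6% against 27.9 and 27.8%, while in its member windows they were 20.7 and 26.2% against 28.9 and 27.8%, lower in both libraries.

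**Figure D4:**
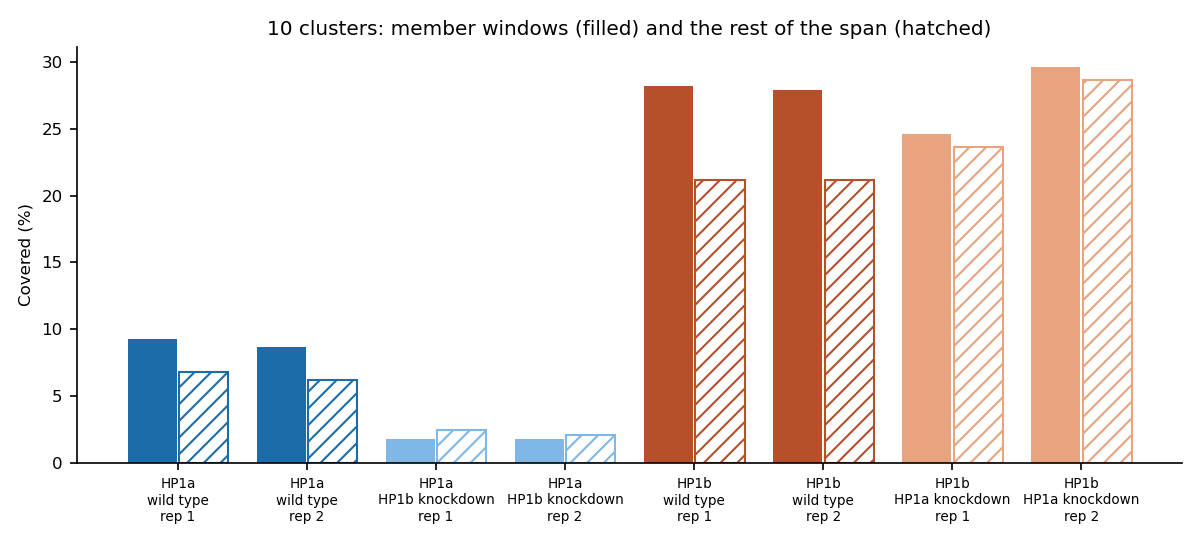
Percentage covered by peaks in the member windows of the 10 clusters (filled) and in the rest of the cluster spans (hatched), for each of the 8 libraries. In the wild-type libraries member windows are covered more (28.3 against 21.2% for HP1b replicate 1), in HP1a from HP1b knockdown the rest of the span is covered more, and in HP1b from HP1a knockdown the 2 are close.

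With HP1b knocked down, HP1a peaks covered 1.85 and 1.82% of the members' windows, against 8.80 and 8.15% in wild type. Both knockdown libraries were lower, by 4.62-fold in the mean, and over all protein-coding genes the mean was 6.92-fold lower (2.04 and 0.294%). Since the knockdown lists are shorter and read depth is unknown, less HP1a binding and shallower sequencing cannot be told apart in these folds, or in the losses and falls below. The members' share of all HP1a peak bases was 0.944 and 1.01% in wild type, against 1.40 and 1.41% after the knockdown, higher in both libraries. That direction depends on the length of the lists. With the 19092 strongest peaks of each library, the share was 2.39 ± 0.0532% in wild type, against 1.41 ± 0.00534% after the knockdown, and the covered percentage 2.58 and 1.82%. With peaks of −log10 p of at least 4 the shares were 1.92 and 1.59%. Covered percentage was lower in the knockdown in each of these settings.

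Peak loss gave the same dependence. Both wild-type libraries had an HP1a peak at 199 members, of which 38 (19.1%) had none in either knockdown library and 78 (39.2%) had one in both. Over all genes 47 and 21.7% of 7945 were lost and kept. Of the 23 members with no peak in either wild-type library, 2 (8.70%), ZNF358 and ZNF256, gained one, against 0.728% of 7421 genes. With the 19092 strongest peaks, 8 of 96 members were lost and 44 were kept (8.33 and 45.8%, over all genes 21.8 and 46.1%), and 14 of 72 were gained (19.4%, over all genes 2.98%). With peaks of −log10 p of at least 4, 50 of 152 members were lost (32.9% against 46.5%), 37 kept (24.3% against 20.5%) and 0 of 49 gained (against 0.593%). The share of members lost was below that of all genes in these 3 settings, but with peaks of −log10 q of at least 2 it was 91.2% (52 of 57) against 92.6%, with 0 kept (against 0.725%) and 0 of 107 gained (against 0.0125%). The share kept was near that of all genes with equal lists. There the other genes of chromosome 19 lost 1 of 28 (3.57%) and kept 20 (71.4%), and ZNF genes on other chromosomes lost 3 of 55 (5.45%) and kept 35 (63.6%). The share lost was larger and the share kept smaller among members, but the losses are 8, 1 and 3 genes and were not tested. With all peaks these sets lost 32.6 and 31.8%, more than members. With −log10 p of at least 4 they lost 36.2 and 23.8%, on either side of members. Longer genes can carry more peaks, and no comparison matched on length was made here. Of member bases covered in both wild-type HP1a libraries, 0.960% were covered in both knockdown libraries, against 0.815% over all genes. In ZNF genes on other chromosomes it was 3.54%.

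Scaled to each library's peak bases, HP1a coverage was called fallen at 32 members and risen at 6, out of the 211 that could be fitted, that is those where at least 2 of the 4 libraries listed a peak (limma, adjusted p under 0.05, n = 2 each). These are 15.2 and 2.84%, against 28.9% fallen and 1.79% risen over all 8878 genes fitted. All 32 members that fell were listed at 0 in both knockdown libraries, so they passed this filter only through the wild-type libraries. A fall was the only direction they could show, so their number is not separate evidence of a fall. Of the 6 rises, 2 were listed at 0 in both wild-type libraries and passed only through the knockdown libraries. With no filter, 0 members fell or rose (lowest adjusted p 0.189, limma). The falls also depend on the pseudocount, the small value added before taking logs, and no fold is given for them. With the pseudocount multiplied by 4, or with equal numbers of peaks, no member passed. An unadjusted p under 0.05 (limma) was then found at 53 members (25.1%, against 39.0% of all genes) and 35 (21.1 against 21.3%). In the main fit it was 49 (23.2 against 42.1%). The median log2 change was −0.45 over fitted members and −1.23 over all genes, −2.14 and −2.15 without scaling, and −0.50 and −0.0049 with equal numbers of peaks. Without knockdown replicate 1 it was −0.10 and −1.62, and without replicate 2 it was −0.28 and −1.51. Without wild-type replicate 1 it was −0.048 and −0.28, and without replicate 2 it was −0.094 and −0.33. The members' median was thus above, level with or below that of all genes according to the scaling.

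ZNF121 in cluster 2 was the most HP1a-covered member to lose its peaks, with 33.6 and 21.3% in wild type and 0 in both knockdown libraries (adjusted p 0.0248, limma). Its HP1b coverage was 60.4 and 52.0% in wild type, against 23.7 and 34% in HP1a knockdown, lower in both libraries. ZNF586 in cluster 10 went from 29.2 and 19.3% to 0 (adjusted p 0.0248), ZNF776 beside it from 17.4 and 30.8% to 0 (adjusted p 0.0297), and ZNF724 in cluster 4 from 18 and 18.6% to 0 (adjusted p 0.0248). These 4 were chosen as the lost members with the highest coverage in the weaker wild-type library. The distance between their groups follows from that choice, and they entered the fit only through the wild-type libraries. The 4 falls with the lowest p were ZNF583, ZNF181, ZNF222 and ZNF121, and the first 3 had only 2.21 ± 0.257, 6.20 ± 0.592 and 5.41 ± 0.400% in wild type. These 3 were low in wild type, with close replicates.

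By cluster, 8 of 37 fitted members fell in cluster 4, 7 of 16 in cluster 7 and 0 of 5 in cluster 1. Over all genes fitted the share was 28.9%. These calls depend on the filter and the pseudocount, and none remained with equal numbers of peaks, so the counts do not rank the clusters. ZNF180, the last gene of cluster 7, was listed at 0 in both knockdown libraries after 14.8 and 18.5% in wild type (adjusted p 0.0248, limma), while HP1b still covered 31.0 and 38.3% of it in HP1a knockdown. As a ratio, the covered percentage differed most in cluster 4, with 9.71 ± 0.185% in wild type, against 1.23 ± 0.0273% after the knockdown (7.88-fold lower). In cluster 10 it went from 12.9 to 2.82%, a larger difference in percentage points and a smaller ratio (4.58-fold). It differed least in cluster 1, with 6.67 ± 0.346 and 5.92 ± 0.772% (1.13-fold), where the libraries overlapped. With equal numbers of peaks, cluster 1 went from 1.23 to 5.92% and cluster 9 from 0.758 to 1.38%, higher in the knockdown, and the means of the other 8 were lower.

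The 6 rises are of 2 kinds. ZNF358 was listed at 0 in wild type and covered over 6.45 and 8.56% in HP1b knockdown (adjusted p 0.0248, limma), and ZNF256 went from 0 to 1.99 and 4.32% (adjusted p 0.0361). ZNF667 in cluster 9 was covered over 3.17 and 4.25% in wild type, against 5.58 and 5.50% after the knockdown (log2 3.08, SE 0.49, adjusted p 0.0277). At these 3 the covered percentage itself was higher in both knockdown libraries. ZNF536, ZNF69 and ZNF540 rose only relative to the library's total. ZNF536, a brain zinc finger gene of 488 kb outside the clusters, had 6.12 and 4.62% in wild type, against 3.76 and 2.85% after the knockdown (log2 of scaled coverage 2.02, SE 0.17, adjusted p 0.0248). ZNF69 in cluster 3 had 11.4 and 11.9%, then 5.17 and 4.06% (log2 1.36, adjusted p 0.0354), and ZNF540 in cluster 6 had 10.8 and 7.59%, then 3.79 and 5% (adjusted p 0.0492). Without scaling the log2 change was −0.69 for ZNF536 (adjusted p 0.0884) and −1.30 for ZNF69 (adjusted p 0.0300), the opposite direction. For ZNF667 the unscaled log2 change was 0.53 (adjusted p 0.299, limma), the same direction but smaller and not past the threshold.

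**Figure D5:**
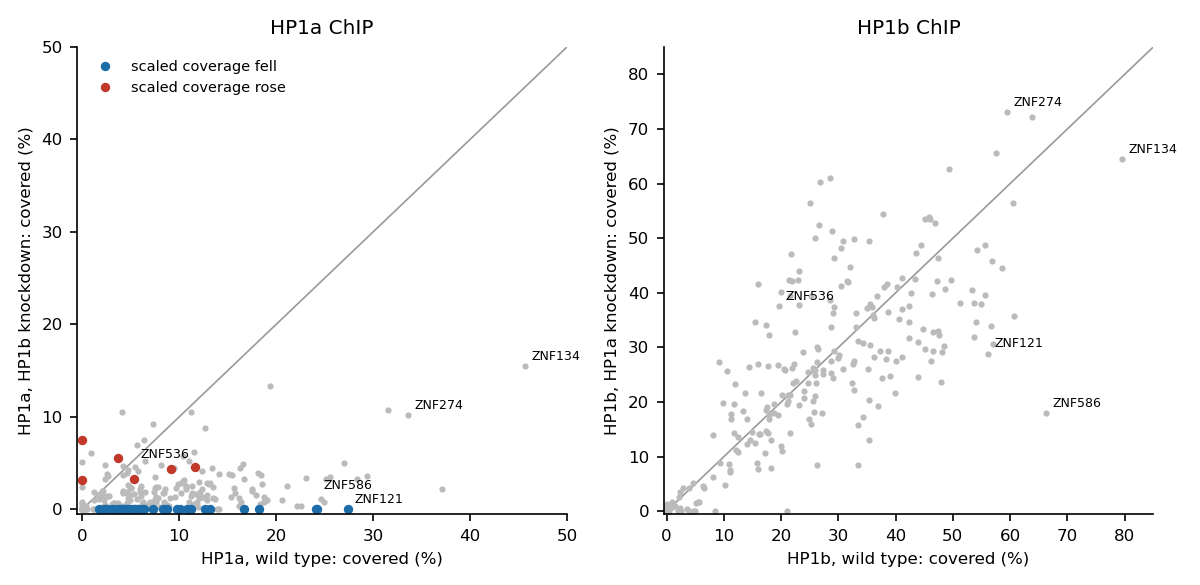
Covered percentage of each of the 246 zinc finger genes in wild type (horizontal) and in the knockdown of the other HP1 protein (vertical), means of 2 libraries, with the line of equal values. Blue and red mark the 32 genes whose scaled HP1a coverage fell and the 6 where it rose. Most genes lie below the line for HP1a, and for HP1b they scatter on both sides of it.

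With HP1a knocked down, HP1b peaks were still listed somewhere in the windows of nearly all members. They covered 26.9 and 26.7% of the member windows in wild type, against 24.3 and 29.9% after the knockdown, with the wild-type values inside the range of the knockdown. Over all genes the means were 4.74 ± 0.141 and 3.9 ± 1.13%. Of 225 members with an HP1b peak in both wild-type libraries, 216 (96%) had one in both knockdown libraries and 4 (1.78%) in neither, against 63.6 and 14.2% of 11100 genes. With equal numbers of peaks these were 215 and 1 of 217, against 70 and 12.9%. With peaks of −log10 q of at least 2 the share kept turned round, 36 of 69 members (52.2%) against 68% of all genes, while 1 (1.45%) was lost against 7.35%. Few members could gain an HP1b peak, since 11 had none in either wild-type library (19 with equal numbers of peaks), and 0 did in both settings, against 4.21 and 4.68% of the genes without one. With −log10 q of at least 2, 18 of 78 did (23.1%, against 3.14%). With −log10 p of at least 4, 136 of 156 members kept their peak (87.2% against 67.8%), 3 lost it (1.92% against 11.2%) and 7 of 41 gained one (17.1% against 2.63%). ZNF genes outside chromosome 19 kept 77.2% with all peaks, 92.2% with this minimum and 83.6% with −log10 q of at least 2. A kept member has a peak anywhere in its window, not always over the same bases. Of member bases covered in both wild-type HP1b libraries, 37.2% were covered in both knockdown libraries. Over all genes it was 23.8%, and in ZNF genes outside chromosome 19 it was 51.9%. The members' share of HP1b peak bases was 1.28 and 1.27% in wild type, against 1.54 and 1.36% after the knockdown, but 1.66 ± 0.0478 and 1.60 ± 0.0869% with equal numbers of peaks.

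No member passed the test in this comparison: 0 fell and 0 rose of 231 fitted (limma, lowest adjusted p 0.144, 38 with unadjusted p under 0.05, 16.5% against 24.9% over all genes), and none of 13101 genes passed. The median log2 change was 0.074 over fitted members and −0.48 over all genes. Without knockdown replicate 1 it was −0.011 and −0.25, and without replicate 2 it was 0.22 and −0.84. The 4 members with the lowest p for a rise were ZNF536 (19.2 and 20.0% to 30.4 and 44.9%), ZNF578 in cluster 8 (24.4 and 27.4% to 43.6 and 56.3%), ZNF606 in cluster 10 (23.3 and 26.9% to 55 and 57.9%) and ZNF667 (18.4 and 21.5% to 35.9 and 44.6%). In all 4, both knockdown libraries were above both wild-type libraries, with an adjusted p of 0.144 each (limma). They were chosen for a low p in this direction, so that order adds no separate evidence.

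In the other direction, ZNF254 in cluster 4 had 17.7 and 18.7% in wild type and 6.51 and 9.22% in HP1a knockdown, and ZNF586 had 57.2 and 75.5%, then 14.9 and 21.0% (adjusted p 0.144 each, limma). ZNF304, ZNF428, ZNF296 and ZNF507 were the 4 members whose HP1b peaks were lost. ZNF304, which encodes a KRAB repressor, had 34.3 and 7.79% in wild type and no listed peak in HP1a knockdown (adjusted p 0.152). ZNF428 had 4.44 and 3.48%, ZNF296 had 6.19 and 3.44%, and ZNF507 had 0.633 and 4.29% in wild type. Of the clusters, cluster 4 was lower in both knockdown libraries (28.3 to 23.5% in the mean) and clusters 1 (32.1 to 46.3%), 8 (31.9 to 34.9%) and 9 (12.8 to 16.5%) were higher in both.

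The knockdown effects of the 2 comparisons were set against each other in a single model. No member passed for the difference (0 of 210 fitted, limma, lowest adjusted p 0.0724, 38 with unadjusted p under 0.05, 18.1% against 21.4% over all genes). Among named members the smallest adjusted p of 0.0724 was shared by ZNF121, ZNF180, ZNF724, ZNF264 and ZNF358. For the first 4, HP1a was listed at 0 in HP1b knockdown while HP1b peaks remained in HP1a knockdown. ZNF264 also had less HP1b than HP1a in wild type, 1.47 and 0.414% against 4.44 and 3.83%.

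Between the proteins in wild type, no member passed either (0 of 228 fitted, limma, lowest adjusted p 0.360, 34 with unadjusted p under 0.05, 14.9% against 12.7% over all genes). The members' median log2 of HP1b over HP1a was 0.49 in scaled coverage and 0.10 over all genes. ZNF780B had the lowest p, with HP1a at 0.731 and 0% and HP1b at 25.1 and 24.5%. ZNF585B had HP1a at 7.79 and 7.38% and HP1b at 43.6 and 46.1%, and ZNF565 had 3.45 and 2.45% and 17.1 and 23.3%. ZNF256 was listed at 0 for HP1a and covered over 30.4 and 61.6% by HP1b. Both HP1b libraries were above both HP1a libraries at each of these, which were chosen for a low p in that direction. Over all genes the unscaled HP1b coverage was also higher, by 2.33-fold in the mean.

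Of 20 genes for the silencing machinery that works at such loci (TRIM28, SETDB1, the HP1 genes, other H3K9 methyltransferases, HUSH and MORC proteins and their partners), 8 could be fitted for HP1a in HP1b knockdown, of which 3 fell and 0 rose. The share that fell, 37.5%, stands beside 28.9% over all genes fitted. The 3 calls depend on the filter and the pseudocount, since all 3 were listed at 0 in both knockdown libraries. SUV39H1, an H3K9 methyltransferase gene, had 4.65 ± 0.311% in wild type (adjusted p 0.0248, limma). The HUSH subunit gene MPHOSPH8 had 0.839 ± 0.374% (adjusted p 0.0304) and MORC3 1.17 ± 0.638% (adjusted p 0.0356). None passed in the other comparisons (14 and 15 fitted). TRIM28, which lies on chromosome 19 just beyond cluster 10, was listed at 0 in all 8 libraries.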

How the data were processed

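The deposited data are 1 list of broad ChIP-seq peaks for each of 8 libraries. The submitters' processing notes name the build hg38, MACS3, Bowtie2, SAMtools and Trimmomatic. Their versions, the peak-calling settings and whether an input library served as control were not stated there. For each peak the deposited lists give a score, a fold enrichment as a ratio, and −log10 p and −log10 q. They hold no counts, so no interval or detection limit could be set.

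Only peaks on autosomes 1 to 22 and X entered the analysis (99.1 to 99.7% of each list), and overlapping peaks of a list were merged. Relative coverage was the number of covered bases in a window per Mb of the library's covered bases. It was fitted as log2 of this value plus a pseudocount (the 10th percentile of values above 0, 2.12 to 4.76) with limma 3.58.1 in R 4.3.3 (moderated, variance trend), over all protein-coding genes where at least 2 of the 4 libraries listed a peak. P-values were adjusted by Benjamini-Hochberg over all genes fitted, with a threshold of 0.05. The code was tested on simulated data. A gene was lost if both wild-type libraries had a peak and neither knockdown library did, gained if both knockdown libraries had a peak that neither wild-type library had, and kept where a peak was present in all 4. Group values are mean ± SD with n = 2, and no test was made over the members as a set. Tables were made with pandas 2.3.3 and numpy 2.4.6 in Python 3.11.15.

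The members, gene lists and alternatives were chosen with earlier results of these data known. Named genes followed a rule: in each comparison up to 4 members with the lowest p in each direction; the 6 most covered in wild-type HP1a and 4 in each other group; the most covered of each cluster; up to 4 lost and 4 gained in each knockdown; members with no peak; and ZNF274. ZNF540 and the promoters shown were added after their values were seen. A comparison by protein features (numbers of fingers, KRAB domains) was planned and not run, since no protein sequences were used here. Alternatives were the strongest peaks in equal number, minimum −log10 p and q, no filter, no scaling, a larger pseudocount, a wider flank, a shared fit, a replicate block, other gaps, and each library left out in turn.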

Additional observations from a re-analysis of the deposited data

How the results depend on the processing

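The count of members with falling HP1a coverage in HP1b knockdown, 32, went to 0 with equal numbers of top peaks, at −log10 p of 4 or more, with no filter, with the pseudocount multiplied by 4 and with a replicate block, and to 85 without scaling. Leaving out single libraries gave between 0 and 61 (0 without either wild-type library). The count of rises, 6, went to 0 with equal numbers of top peaks, −log10 p of at least 4, −log10 q of at least 2, no filter or the larger pseudocount, to 2 without scaling, to 16 with all 8 libraries in a single fit, to 1 with the replicate block, and to between 0 and 41 with single libraries left out. With fewer peaks, fewer genes could be fitted; otherwise the cause was not tested. Replicate numbers did not pair the libraries: the differences between replicates 1 and 2 correlated at 0.015, 0.033 and −0.012 over 10366 genes in the 3 comparisons. The replicate block changed the HP1b comparison from 0 to 2 rises (0.866% of members fitted, against 1.01% of all genes). Falls stayed at 0 among members there, against 2.43% of all genes. The other 2 tests stayed at 0 with the block.

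For HP1b in HP1a knockdown, the members' median log2 change ran from −0.011 to 0.22 with single libraries left out, against −0.84 to −0.25 over all genes. For HP1b against HP1a, 1 member rose without scaling (0.439% of members fitted, against 0.581% of all genes). There the members' median log2 ran from 0.47 to 0.52 with single libraries left out, against −0.047 to 0.14 over all genes. For the difference between the knockdown effects, falls were 6 with −log10 q of at least 2, 15 with no filter, 43 without scaling and 0 to 57 with single libraries left out, and rises were 1 with no filter and 0 to 21 with single libraries left out.

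The 38 members that lost HP1a peaks became 8 with equal numbers of peaks, 65 when at least 500 covered bases were required and 44 to 84 with single libraries left out. The 2 that gained them became 14 with equal numbers, 0 with either minimum strength, 1 with at least 500 bases and 2 to 7 with single libraries left out. The 4 that lost HP1b peaks became 1 with equal numbers or −log10 q of at least 2, and 4 to 9 with single libraries left out. The 0 that gained them became 7 at −log10 p of 4 or more, 18 with −log10 q of at least 2, and 0 to 2 with single libraries left out.

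For the members' share of peak bases, stronger peaks gave higher means, but in HP1a from HP1b knockdown (1.40 ± 0.00384%) and HP1b from HP1a knockdown (1.45 ± 0.127%) the SD with −log10 q of at least 2 was 0.400 and 0.644, larger than the difference. For wild-type HP1a it was 2.39% with equal numbers, 1.92% with −log10 p of at least 4, 2.21% with −log10 q of at least 2 and 1.03% with a 2 kb flank. For HP1a in HP1b knockdown it was 1.41, 1.59, 1.42 and 1.46%, and 1.24% without ZNF536, the longest member, an alternative added after the data were seen. For wild-type HP1b it was 1.66, 3.46, 3.07 and 1.35%, and 1.21% without ZNF536. For HP1b in HP1a knockdown it was 1.60, 2.06 and 1.81%, and 1.32% without ZNF536.

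The ratio of the most to the least covered cluster in wild-type HP1a (3.29) became 15.3 with a gap of 250 kb, 4.41 at −log10 p of 4 or more and 5.15 with equal numbers. In wild-type HP1b (2.51) it became 9.50, 4.41 and 2.74, and 1.90 with a gap of 1 Mb. In HP1a knockdown (2.81) it became 32.7 with a gap of 250 kb and 6.92 with −log10 p of at least 4. The scaled change of ZNF536 (2.02) turned to −0.46 with −log10 q of at least 2 and −0.69 without scaling, and that of ZNF69 (1.36) to −0.34 with −log10 p of at least 4, −0.077 with −log10 q of at least 2 and −1.30 without scaling. Of the other values computed for named genes under an alternative, 65 kept their direction and call and 79 kept only their direction.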
